A study of Mus musculus with 26 samples.

Results

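Aquaporins are membrane channels that let water pass along osmotic gradients, and some of them also pass glycerol. This report follows 8 aquaporin genes of the mouse, Aqp1, Aqp3, Aqp4, Aqp5, Aqp7, Aqp8, Aqp9 and Aqp11, in embryonic stem cells that were or were not given retinoic acid. The 8 genes were taken by name out of 12 family members and 21938 protein-coding genes. Aqp3 was put at their center because it was chosen from the authors' own comparison of the RNA-seq libraries. The fold changes and p-values of that comparison are not used here, so the entry of Aqp3 in it is a description and supports no statement below.

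The cells were E14, an embryonic stem cell line grown without feeder cells, whose pluripotency depends on leukemia inhibitory factor (LIF). All cells grew for 48 h, and for the last 4 h they received fresh medium with LIF (mESC+) or, with LIF withdrawn, with 1 µM retinoic acid (RA, mESC-). Both states therefore share the line and the medium change, and LIF withdrawal and RA cannot be told apart. The values come from 3 RNA-seq libraries per state, 1 ATAC-seq library per state made from 75000 cells, and enhancer probabilities computed from 4 ChIP-seq libraries per state, and 10 further ChIP-seq libraries did not enter.

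RA is a small ligand of nuclear receptors. The receptors bind DNA as pairs at direct repeats of a short half-site, and ligand changes which cofactors they hold. Among the aquaporins, Aqp3, Aqp7 and Aqp9 belong to the aquaglyceroporins, which conduct glycerol as well as water. Aqp1, Aqp4 and Aqp5 are water channels known from kidney tubules and red blood cells, from astrocyte endfeet and from glands and lung, respectively. Aqp8 is found in gut and gland epithelia, and Aqp11 is a distant relative that lies in the endoplasmic reticulum.

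The start sites of the family differ in their letters. RefSeq promoters of GRCm38.p6, which run from 250 bases before to 50 bases after a start, were matched to 7 of the 8 genes, with 9 promoters in all. The promoters of 4 genes are shown because they span the range from no CpG to many, each written 5′ to 3′ along its gene with every CpG in capitals. They lie at chr4:41098134-41098433 (Aqp3, minus strand), chr7:97738198-97738497 (Aqp11, minus strand), chr15:99590778-99591077 (Aqp5, plus strand) and chr4:41048087-41048386 (Aqp7, minus strand).
Aqp3 promoter: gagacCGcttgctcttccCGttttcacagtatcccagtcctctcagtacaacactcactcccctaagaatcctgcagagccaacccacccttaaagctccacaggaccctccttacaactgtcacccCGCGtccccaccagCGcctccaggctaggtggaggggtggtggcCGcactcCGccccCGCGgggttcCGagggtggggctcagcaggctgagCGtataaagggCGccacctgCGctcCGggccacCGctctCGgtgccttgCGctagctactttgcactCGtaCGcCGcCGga
Aqp11 promoter: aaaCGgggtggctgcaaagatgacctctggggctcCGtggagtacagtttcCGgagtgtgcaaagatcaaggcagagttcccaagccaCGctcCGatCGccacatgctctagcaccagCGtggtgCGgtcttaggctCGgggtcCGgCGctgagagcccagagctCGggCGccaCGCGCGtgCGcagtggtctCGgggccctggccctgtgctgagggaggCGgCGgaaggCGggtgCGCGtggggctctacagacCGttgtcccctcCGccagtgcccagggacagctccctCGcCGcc
Aqp5 promoter: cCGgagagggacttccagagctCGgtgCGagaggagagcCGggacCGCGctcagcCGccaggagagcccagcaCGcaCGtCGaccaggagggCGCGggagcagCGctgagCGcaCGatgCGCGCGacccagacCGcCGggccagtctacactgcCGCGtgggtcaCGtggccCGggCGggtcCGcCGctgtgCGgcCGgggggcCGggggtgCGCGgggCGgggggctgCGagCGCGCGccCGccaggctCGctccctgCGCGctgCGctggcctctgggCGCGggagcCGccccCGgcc
Aqp7 promoter: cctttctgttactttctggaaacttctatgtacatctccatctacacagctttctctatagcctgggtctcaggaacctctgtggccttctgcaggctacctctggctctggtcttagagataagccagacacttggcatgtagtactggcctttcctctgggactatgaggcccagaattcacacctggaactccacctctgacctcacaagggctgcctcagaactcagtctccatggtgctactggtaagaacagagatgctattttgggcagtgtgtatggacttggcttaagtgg
The Aqp3 promoter holds 21 CpG, more than 75.2% of the 32851 RefSeq promoters, whose median is 7. Its GC content is 64.0% against a median of 52.7%. The TATA letters TATAAA begin 29 bases before the annotated start of Aqp3, and they occur in 13.6% of all promoters on either strand. The letters GGGCGG, the core of an Sp1 site, lie on the opposite strand, 68 bases before the start, so that the printed strand shows their complement, and they occur in 35.7% of promoters on either strand. Aqp11 holds 27 CpG and Aqp5 46, while the Aqp7 promoter holds 0 and a second RefSeq promoter of Aqp7 holds 3. The RefSeq start of Aqp5 lies 246 bases inside the gene start used below.

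Aqp3 was the only one of the 8 genes with a row in the deposited RNA-seq table. That table lists 2189 genes, and 1984 of 21938 protein-coding genes (9.04%) have a row. The authors' mean of Aqp3 over all 6 libraries was 2190 normalized counts, which is 1197 per kb of its 1.83 kb of merged exons. Per kb, this mean was above that of 91.7% of the listed genes. Of the other 4 family members, Mip, Aqp2, Aqp6 and Aqp12, 0 are listed. A missing row gives no level, since Pou5f1 and Nanog, core factors of the pluripotent state, have none either. The table holds no value per library, so the spread of Aqp3 between cultures is unknown.

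Chromatin at the start sites was read from ATAC-seq, in which a transposase inserts adapters into open DNA. The authors called 163484 peaks in mESC+ and 141465 in mESC-. A peak's percentile is its rank from the lowest fold enrichment over background in its own list, in percent, with ties given their average rank. Percentiles are used because the 2 libraries do not share a scale of fold enrichment. With 1 library per state, no difference between the states has a replicate check and no p-value is given. Read totals are unknown, so the depth behind the peaks is too.

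Within 1 kb of the annotated start, 7 of the 8 genes had a peak in mESC+ and 4 in mESC-. Among all protein-coding genes, these shares were 67.7% and 66.4%. Aqp3, Aqp5, Aqp9 and Aqp11 had a start-site peak in both lists (65.7% of all genes). Aqp1, Aqp7 and Aqp8 had one in mESC+ alone, which 2.05% of all genes did. There was no member with a start-site peak in mESC- alone (0.752% of all genes), and Aqp4 had none in either list (31.5%). The peaks of the 3 genes with one in mESC+ alone were weak, at percentile 36.3 for Aqp1, 19.7 for Aqp7 and 13.5 for Aqp8. The summit of the Aqp7 peak lay 973 bp before its start, so a window of 500 bp loses it.

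By fold enrichment, Aqp3 had a weak start site in both states. Its strongest start-site peak stood at percentile 22.8 in mESC+, with a fold enrichment of 4.94, and at percentile 15.9 in mESC-, with a fold enrichment of 4.64. The corresponding medians of all genes with a start-site peak were 79.1 and 78.3. Only 5.82% of these genes in mESC+ and 4.28% in mESC- had a weaker strongest peak than Aqp3. Ranked by −log10 p instead, the same 2 peaks of Aqp3 stood at percentiles 34.8 in mESC+ and 36.2 in mESC-. The order of the states thus depends on the measure. In mESC+ the site was split into 3 peaks with fold enrichments of 4.94, 4.66 and 3.52, the middle one with its summit 23 bp before the start. In mESC-, 1 peak of 329 bp ran across the start.

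The remaining start sites fell into strong and weak ones. Aqp11 was the strongest, at percentile 86.3 in mESC+ and 84.1 in mESC-, with fold enrichments of 12.2 and 11.2. Aqp5 stood at 70.3 and 82.5, with fold enrichments of 8.97 and 10.7. Ranked by −log10 p, for which no median over all genes is given here, Aqp11 stood at 93.4 and 93.7 and Aqp5 at 66.1 and 76.6. By fold enrichment, both genes are thus near the median of all genes. Their promoters hold 27 and 46 CpG, but that of Aqp3, with a weak start site, also holds 21 against a median of 7. A link between CpG and peak strength was not tested. Aqp9 had different peaks in the lists that did not overlap, at percentiles 6.95 and 9.03, close to the weakest peaks called. The RefSeq starts of Aqp9 lie 5393 and 6049 bases inside the gene start used here. Neither of these RefSeq promoters overlapped a peak of either list, so the count of Aqp9 depends on the annotation.

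**Figure D1:**
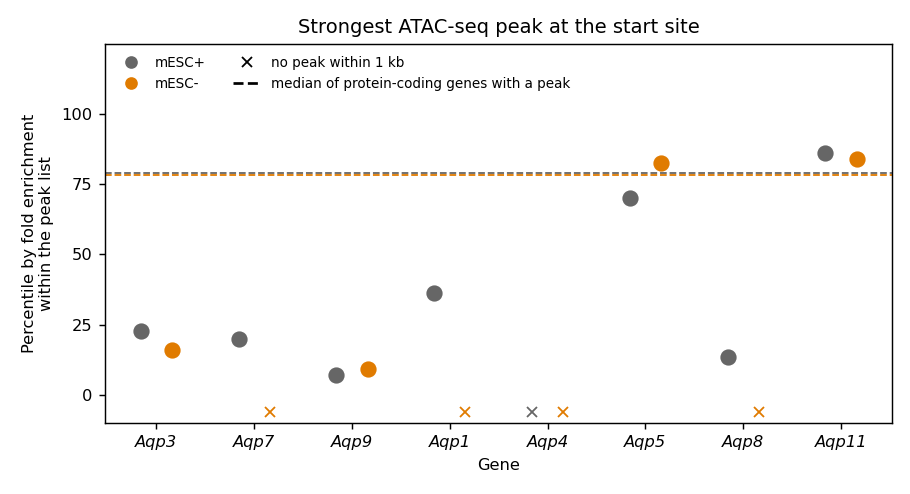
Percentile by fold enrichment of the strongest ATAC-seq peak within 1 kb of the start of each gene, in mESC+ (gray) and mESC- (orange), with crosses for no peak and dashed lines for the median of all protein-coding genes with a peak. Aqp11 and Aqp5 lie near the dashed lines, Aqp3 lies at 22.8 and 15.9, and Aqp1, Aqp7 and Aqp8 have a point in mESC+ only.

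The genes whose start-site peaks stood closest to those of Aqp3 were Trpv4, Gsdme and Traf4. Likeness was measured as the distance between the percentiles in the 2 libraries over 14402 genes with a peak in both. The distances were 0.406, 0.442 and 0.580 percentile points. Trpv4 encodes a calcium channel that opens on osmotic swelling, Gsdme a pore-forming gasdermin and Traf4 a signaling adaptor. None of the 3 is listed in the RNA-seq table. In all, 58 of these genes (0.403%) lay within 5 points of Aqp3.

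Beyond the start site, Aqp3 lies in a stretch with many peaks. Peaks of both lists that overlapped by at least 1 bp were merged, and the gene body plus 100 kb on each side was searched. Around Aqp3 there were 47 merged peaks, more than around 86.1% of protein-coding genes, whose median is 28. Of these, 31 occurred in both lists, 6 in mESC+ alone and 10 in mESC- alone. Over the genome, 65.3% of 180036 merged peaks occurred in both lists, 23.7% in mESC+ alone and 11% in mESC- alone. The share of peaks in mESC- alone near Aqp3 was 21.3% (exact Clopper-Pearson 95% interval 10.7 to 35.7%). The interval covers counting error only, since peaks of one library are not independent. The genome share of 11% lies inside this interval. More peaks in mESC- alone than in mESC+ alone were found around 10.3% of protein-coding genes, and 10 or more in mESC- alone around 1.42%. The last count does not allow for the number of peaks in a window. Of the 14693 genes with at least 20 merged peaks, 96.9% had a lower share in mESC- alone than Aqp3.

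**Figure D2:**
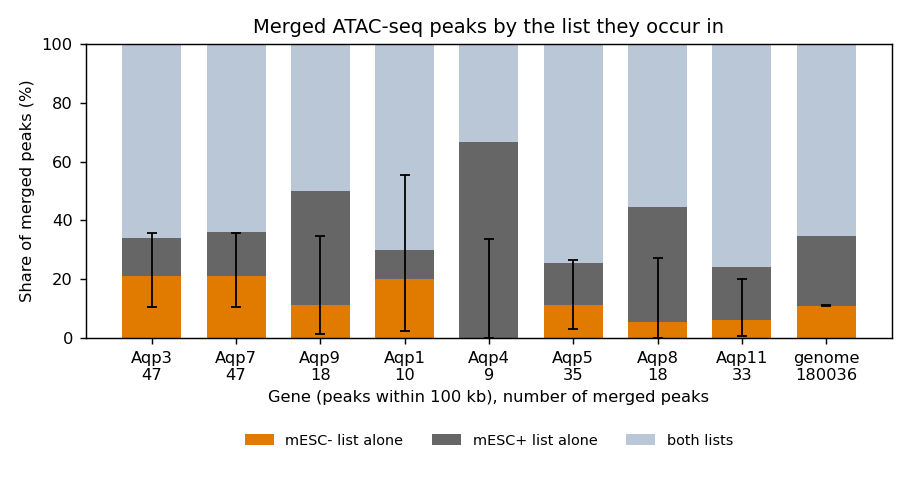
Share in percent of the merged peaks within 100 kb of each gene that occur in the mESC- list alone, the mESC+ list alone or both lists, with the number of peaks below each name and the genome at the right. The bars give the exact 95% interval of the mESC- share, which for Aqp3 and Aqp7 is 21.3% against 11% for the genome.

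Aqp7 lies 50 kb downstream of Aqp3 and shares 37 of these peaks, so the similar counts of Aqp7 (30, 7 and 10) are no second observation. Outside the window of Aqp3, the other 7 genes had 133 merged peaks, of which 13 or 9.77% (5.31 to 16.1%) were in mESC- alone and 35 or 26.3% in mESC+ alone. The intervals for Aqp3 and for the other genes overlap. By gene, the counts in mESC- alone and mESC+ alone were 2 and 1 for Aqp1, 0 and 6 for Aqp4, 4 and 5 for Aqp5, 1 and 7 for Aqp8, 2 and 7 for Aqp9, and 2 and 6 for Aqp11. Outside each other's windows, Aqp3 had 2 and 2 and Aqp7 had 2 and 3, while the 37 peaks they share held 8 and 4. As a share, mESC- alone made up 21.6% of the 37 peaks and 20% of the 10 outside peaks of each gene. With 10 peaks the interval is 2.52 to 55.6%, too wide to place the difference in one part.

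The 10 peaks found near Aqp3 in mESC- alone were weak, at percentiles 2.55 to 43.2 with a median of 12.5. The 6 peaks in mESC+ alone stood at percentiles 2.76 to 36.3. Among the 16 peaks of one list, 6 had a peak of the other list within 1 kb, 41 bp away in the nearest case. The peaks of one list alone near Aqp3 thus stood low in their lists, as such peaks did elsewhere. In mESC- alone, the median was 11.3 near the other genes, outside the window of Aqp3, and 18.9 over the genome. In mESC+ alone, the medians were 19.7 near Aqp3, 15.9 near the other genes and 26.3 over the genome. With a −log10 q of at least 10 required, 2 peaks in mESC- alone and 4 in mESC+ alone were left, and among the 50000 strongest peaks of each list there were 2 of each. Since the mESC+ list is longer, it was also shortened to the length of the mESC- list, which left 10 peaks near Aqp3 in mESC- alone and 4 in mESC+ alone, with genome shares of 16.2% and 17.1%.

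The strongest peaks around Aqp3 lay in or beside its neighbors, with no target gene tested. They lay at the start of Nol6, a gene of ribosome biogenesis (percentiles 98.3 and 99.3), between Nol6 and Ube2r2 (98.8 and 97.8) and in an intron of Ube2r2, a ubiquitin-conjugating enzyme (98.0 and 97.1). The 5 neighbors within 100 kb, Nfx1, Aqp7, Nol6, Ube2r2 and Ubap2, all lack a row in the RNA-seq table. Closer to Aqp3, a peak lay 2998 bp before its start at chr4:41101060-41101303, with fold enrichments of 7.80 and 8.42 and percentiles of 61.3 and 69.0. It ranked above the start site itself in both states.

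Other peaks on either side of Aqp3 changed places. The one at chr4:41091425-41091731, 6.61 kb from the start and just past the 3′ end, stood at percentile 72.5 in mESC+ and 32.5 in mESC-. A peak 7.92 kb from the start stood at 23.6 and 45.4, and one at 15.2 kb stood at 23.5 and 53.5. A peak 8.28 kb before the start stood at 33.4 and 7.29. Of the 31 shared peaks, 13 had the higher percentile in mESC- and the other 18 in mESC+. Near Aqp3, the median change of percentile was -3.15. It was -1.78 near the other 7 genes and -2.49 over all shared peaks of the genome. Among the 50000 strongest peaks of each list, the 3 medians were 3.81, 0.071 and 0.645, so the sign depends on how many weak peaks are kept.

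**Figure D3:**
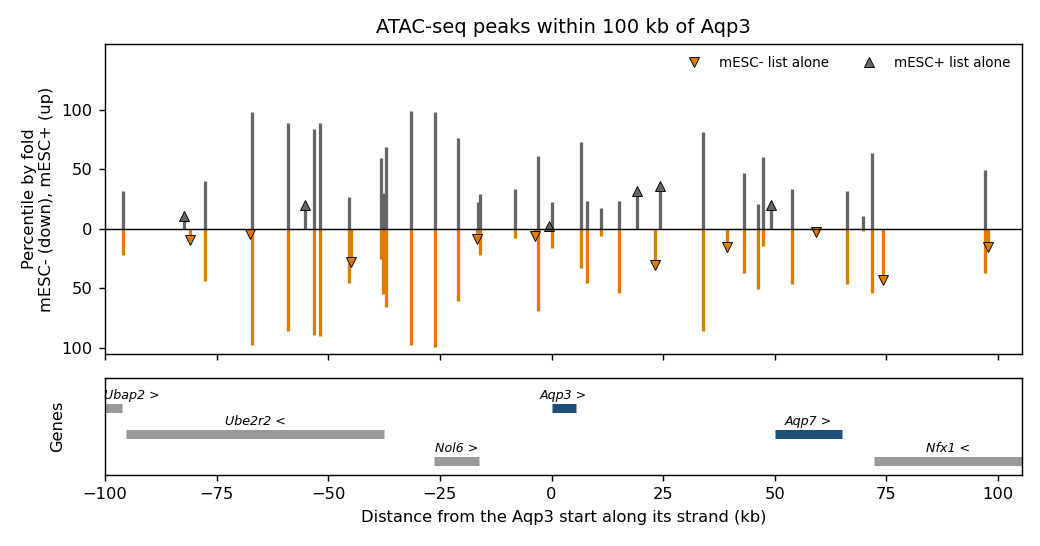
ATAC-seq peaks within 100 kb of Aqp3 by distance from its start in kb along its strand, as percentile by fold enrichment in mESC+ (up, gray) and mESC- (down, orange), with triangles for peaks of one list alone and the protein-coding genes below. The 10 orange triangles are at percentiles up to 43.2, and the tallest lines lie in or beside Nol6 and Ube2r2.

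**Figure D4:**
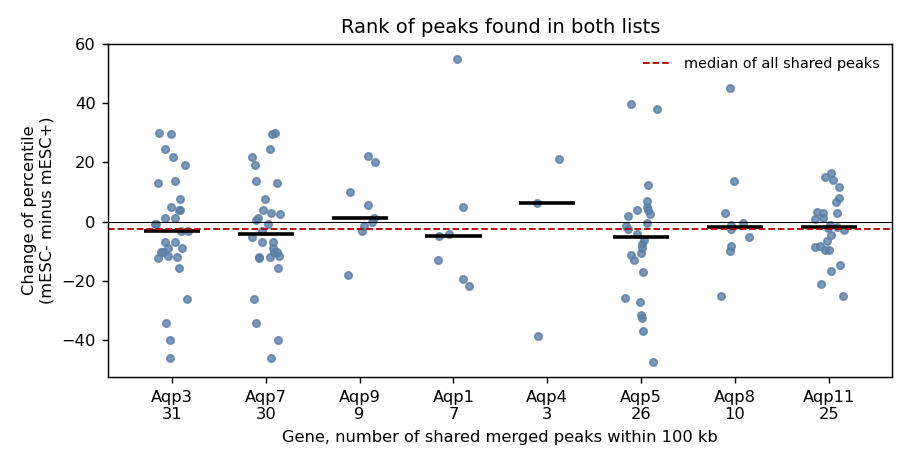
Change of percentile, mESC- minus mESC+, for each merged peak present in both lists within 100 kb of each gene, with the median as a black bar and the median of all shared peaks (-2.49) dashed. Each gene has peaks that changed in both directions, and the points farthest above 0 are near Aqp1 (54.9), Aqp8 (45.1) and Aqp5 (39.7). The Aqp1 point joins an mESC+ and an mESC- peak that overlap only in part.

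RA receptors pair on direct repeats, so the letters under the peaks were searched. The search took the half-sites AGGTCA (or AGTTCA or GGGTCA or GGTTCA) in tandem, spaced by 5, 2 or 1 bases, on both strands in 300 bp around each summit, with at most 1 mismatch over both half-sites. Such a repeat was found in 5 of 39 peaks near Aqp3 in mESC+ (12.8%, exact interval 4.30 to 27.4%) and in 5 of 41 in mESC- (12.2%). Over all peaks, the shares were 7.99% and 8.93%, inside the intervals. No repeat near Aqp3 was free of mismatches. The peak upstream of Aqp3 is shown because it is the closest to the Aqp3 start of the peaks with a repeat in their window. It is written, with 20 bases past its end, along the plus strand of chr4:41101060-41101323, 5′ to 3′, with the half-sites in capitals.
Aqp3 upstream peak: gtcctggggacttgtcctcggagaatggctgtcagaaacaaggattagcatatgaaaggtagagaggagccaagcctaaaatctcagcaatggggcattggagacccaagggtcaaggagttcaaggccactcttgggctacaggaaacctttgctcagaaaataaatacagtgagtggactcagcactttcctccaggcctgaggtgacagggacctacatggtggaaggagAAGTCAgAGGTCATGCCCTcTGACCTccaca
The first repeat, AAGTCAgAGGTCA at chr4:41101293-41101305, has 1 mismatch. The second, AGGTCAgAGGGCA at chr4:41101306-41101318, lies on the minus strand, also with 1 mismatch. They lie 3.12 and 3.13 kb before the Aqp3 start. The first runs across the end of the peak and the second lies past it, inside the 300-bp window of the mESC+ summit but not of the mESC- summit. The peak itself was present in both states. Of the 9 promoters matched to the genes, 1 held a repeat, the second promoter of Aqp7, against 6.32% of all RefSeq promoters.

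Of the 8 genes, Aqp5 alone had a dynamic enhancer region within 100 kb. The authors computed an enhancer probability between 0 and 1 from histone marks in each state and listed 327 regions in which it differed. The count of 1 in 8 stands against 4.54% of protein-coding genes, or 2.56% for regions of higher probability in mESC-. It lies upstream of Aqp5 at chr15:99550001-99551200, outside annotated genes. Its probability was 0 in mESC+ and 0.95 in mESC-.

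The region is 39.6 kb from Aqp5, but nearer to other genes. The closest start is that of Faim2, a neuronal inhibitor of Fas-induced cell death, at 21.8 kb. Aqp2, the vasopressin-regulated water channel of the collecting duct, follows at 27.9 kb, and Aqp6, an intracellular member of the family, lies at 50.2 kb, so the same region is within 100 kb of 3 of the 12 family genes. All of these genes lack a row in the RNA-seq table, as do all protein-coding genes within 100 kb of the region. Aqp3 had its nearest dynamic region 12854 kb away. For Aqp9 it was 591 kb (probability 0.0194 in mESC+ and 0.88 in mESC-), for Aqp11 1682 kb, and for the other members between 2417 and 12904 kb.

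The ATAC-seq peak over the left edge of this region also ranked higher in mESC-. Its fold enrichment was 6.80 in mESC+ and 13.2 in mESC-, and its percentile was 53.4 and 91.3. Only 1 other shared peak within 100 kb of Aqp5 changed more in this direction, at chr15:99658487-99658811, from percentile 23.7 to 63.4. The shared start-site peak of Aqp5 stood 12.2 points higher in mESC-. A second peak at this start, with its summit 249 bp before it, was in mESC+ alone at percentile 54.9. Of the 26 shared peaks near Aqp5, 17 ranked higher in mESC+, and the median change was -5.16. The probability and the peak come from separate libraries of the same cell states, each with 1 sample. The sequence under the peak is given for 300 bp around its summit in mESC-, chr15:99549946-99550245, plus strand, with half-sites in capitals.
Aqp5 region peak: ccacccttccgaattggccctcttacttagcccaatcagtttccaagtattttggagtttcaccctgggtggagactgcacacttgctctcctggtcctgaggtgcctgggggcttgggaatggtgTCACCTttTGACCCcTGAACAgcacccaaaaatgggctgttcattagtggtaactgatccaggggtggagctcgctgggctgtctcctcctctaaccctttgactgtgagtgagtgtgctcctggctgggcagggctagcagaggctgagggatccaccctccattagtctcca
The capitals hold 2 overlapping repeats on the minus strand, GGGTCAaaAGGTGA at chr15:99550072-99550085 and TGTTCAgGGGTCA at chr15:99550080-99550092, each with 1 mismatch. They share the half-site GGGTCA. A repeat with at most 1 mismatch occurred in 166 of the 327 dynamic regions (50.8%), which are much longer than the 300-bp windows, and one without mismatch in 17.4%.

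**Figure D5:**
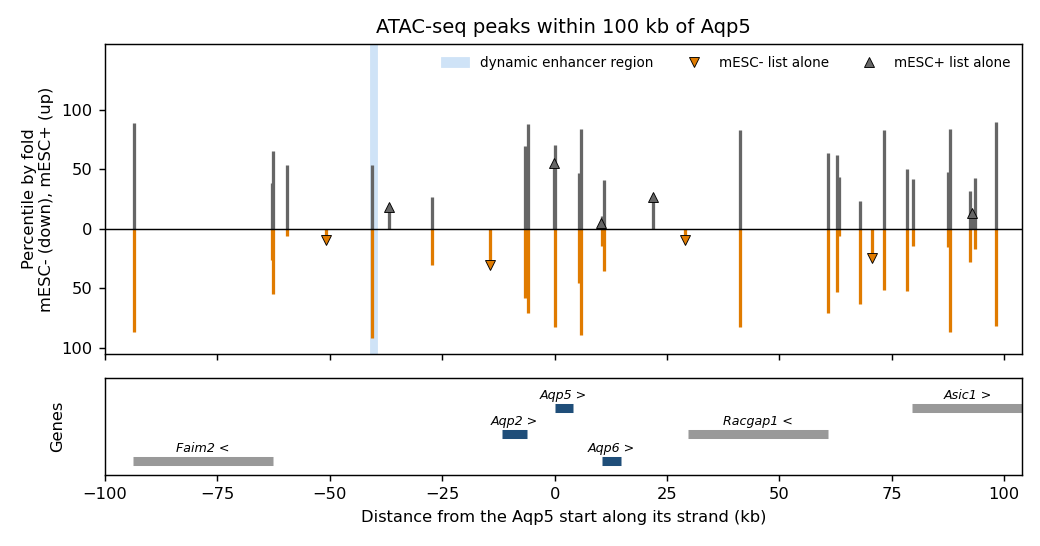
ATAC-seq peaks within 100 kb of Aqp5 by distance from its start in kb, as percentile by fold enrichment in mESC+ (up, gray) and mESC- (down, orange), with the dynamic enhancer region shaded and the protein-coding genes below. In the shaded region the peak reaches 53.4 in mESC+ and 91.3 in mESC-.

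Repeats without a mismatch were found near 2 of the 8 genes, in peaks called in mESC- alone. The windows of the other family members were not searched, and the peak near Aqp5 is also within 100 kb of Aqp2 and Aqp6. Near Aqp5, 1 of 30 mESC- peaks and 0 of 31 mESC+ peaks held one. Near Aqp11, these counts were 1 of 27 and 0 of 31. Over all peaks, 0.851% in mESC+ and 1.24% in mESC- held one. These shares lie inside the exact intervals of both genes, so neither an excess nor a difference between the states was shown. The first peak lies 70.5 kb downstream of the Aqp5 start between Racgap1 and Asic1, at chr15:99661256-99661354, with a fold enrichment of 5.05 (percentile 24.4). The second lies 61.5 kb upstream of Aqp11 in an intron of Pak1, a protein kinase, at chr7:97799657-97799833, with a fold enrichment of 5.28 (percentile 27.3). The nearest mESC+ peak was 2491 bp from the first peak and 323 bp from the second. One more sequence is shown because its peak, in an intron of Mindy4 90.9 kb upstream of Aqp1, changed most of all shared peaks near the 8 genes. That peak, at chr6:55245436-55245655, had fold enrichments of 4.49 and 8.81 and percentiles of 15.9 and 70.9. It joins an mESC+ peak at chr6:55245436-55245533 and an mESC- peak at chr6:55245492-55245655. The 2 overlap only in part, so the change does not compare the same stretch. All 3 sequences are written along the plus strand, 5′ to 3′, with half-sites in capitals.
Aqp5 downstream peak: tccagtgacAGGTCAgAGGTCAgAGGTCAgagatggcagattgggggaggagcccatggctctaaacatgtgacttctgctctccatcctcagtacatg
Pak1 intron peak: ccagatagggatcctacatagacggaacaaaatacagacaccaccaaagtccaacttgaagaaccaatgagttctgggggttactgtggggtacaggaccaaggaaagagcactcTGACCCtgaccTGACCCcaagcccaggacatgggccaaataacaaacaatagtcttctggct
Mindy4 intron peak: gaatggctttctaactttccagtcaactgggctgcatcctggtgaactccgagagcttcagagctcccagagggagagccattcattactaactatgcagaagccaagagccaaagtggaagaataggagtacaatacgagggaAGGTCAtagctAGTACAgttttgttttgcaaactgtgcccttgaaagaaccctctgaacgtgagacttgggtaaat
The first sequence holds 3 half-sites AGGTCA in a row, spaced by 1 base, at chr15:99661265-99661284. The Pak1 sequence holds GGGTCAggtcaGGGTCA on the minus strand at chr7:97799772-97799788, spaced by 5 bases. The Mindy4 sequence holds AGGTCAtagctAGTACA at chr6:55245580-55245596, spaced by 5 bases with 1 mismatch. This repeat lies inside the mESC- peak and past the end of the mESC+ peak. Of the protein-coding starts, that of Pak1 is nearest to the Pak1 peak and that of Mindy4 to the Mindy4 peak, so neither peak is closest to an aquaporin.

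Some genes of the family held their strongest peak away from the annotated start. In Aqp8 a shared peak 3.68 kb inside the gene stood at percentile 99.3 in mESC+ and 94.1 in mESC-, while its start had the weak mESC+ peak alone. In Aqp9 a shared intronic peak 12.9 kb from the start stood at 95.8 and 96.9. In Aqp4, a shared intronic peak 5.72 kb inside stood at 46.4 and 67.5, and 3 further peaks inside the gene were in mESC+ alone. The only protein-coding neighbor of Aqp9 within 100 kb was Aldh1a2, which encodes an enzyme that makes RA from retinaldehyde. Of 3 peaks at the Aldh1a2 start, one stood at percentile 81.8 in mESC+ and 63.7 in mESC-, one went the other way at 4.37 and 24.6, and one was in mESC+ alone. Aldh1a2 is not listed in the RNA-seq table.

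Genes of glycerol use, which share their solute with the aquaglyceroporins, were close to all genes in how often they had a start-site peak. Of Gk, Gpd1, Gpd1l, Gpd2, Lipe, Pnpla2, Tkfc and the glucose transporter gene Slc2a1, 6 of 8 had one in both lists (65.7% of all genes), at percentiles 42.1 to 92.7 in mESC+. Aqp3 at 22.8 lay below all 6, while Gpd1 and Lipe had no start-site peak in either list. The RNA-seq table lists 2 of the 8 (9.04% of all genes), Slc2a1 with an authors' mean of 10844 normalized counts and Lipe, the hormone-sensitive lipase that releases glycerol from fat, with 255.5. Lipe had 1 dynamic region within 100 kb and no start-site peak. Of the other 4 family members, Aqp6 had start-site peaks at percentiles 41.2 and 35.0, and Mip, Aqp2 and Aqp12 had none.

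Start-site peaks did not separate cell types in these libraries. Of 8 embryonic stem cell genes, 7 had a start-site peak in mESC+ and 6 in mESC-, Esrrb having none and Dppa3 one in mESC+ alone at percentile 1.23. Start-site peaks in both lists were also found for 3 of 4 endoderm genes, 3 of 3 neural, 2 of 2 mesoderm and 3 of 3 fibroblast genes, and for 65.7% of all genes. The RNA-seq table lists Sox2, Klf4 and Zfp42 of the embryonic stem cell genes, and also Gata6 (endoderm), Neurod1 (neural) and Thy1 (fibroblast). The part of other cell types in the peaks near the aquaporins was not tested.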

How the data were processed

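The authors mapped RNA-seq reads to GRCm38 with BWA-MEM, per the methods, and deposited a DESeq2 table with a mean normalized count per gene over all libraries (a normalized signal), besides fold changes, their errors, test scores and p-values of their own comparison, which were not used. For ATAC-seq, the authors also used BWA-MEM on GRCm38, removed duplicates and called peaks in each library with MACS2. The deposited lists give a fold enrichment (a ratio over background) and −log10 p and q values per peak. For the dynamic regions, the authors aligned ChIP-seq reads with STAR (2.5.1b in the submitters' processing notes) and deposited an enhancer probability, a fraction between 0 and 1, per state, computed in bins of 100 bp, and a p-value and cluster that were not used. Read totals, the parameters of MACS2 and the rule for a row in the RNA-seq table are not given in the sources used here.

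From these files, peaks on the main chromosomes were joined to gene starts and gene bodies of the GENCODE annotation of GRCm38.p6 and merged between lists at an overlap of at least 1 bp, with the highest percentile kept. Distances run from the start of the gene along its strand to the middle of the peak. Repeats were searched in the GRCm38.p6 sequence. Intervals are exact Clopper-Pearson intervals at 95%. Groups follow the labels. No test was possible, because ATAC-seq has 1 library per state and the RNA-seq table no value per library, so counts are set against all genes or all peaks. The genes and lists were chosen with earlier results of these data known. The named genes are the 8 members, the family and glycerol genes with a dynamic region or a start-site peak in one list only, the 3 genes nearest to Aqp3 in start-site percentiles, and genes holding a named peak or region. Others were named after their values were seen. A planned comparison of the proteins was not made. On simulated data, all 10 checks of the merging, the windows and the repeat search passed. The tools were Python 3.11.15 with pysam 0.24.0, pandas 2.3.3, NumPy 2.4.6, matplotlib 3.10.9 and SciPy 1.17.1.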

Additional observations from a re-analysis of the deposited data

How the results depend on the processing

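No paired analysis was possible because no value per RNA-seq library is used and ATAC-seq has 1 library for each state. Leaving out a replicate was impossible for that reason too. Among 55 values under alternatives, 28 stayed within 1.5 times the reported count or within the interval of the reported median and 27 moved. The cause of the moves was not tested, other than that stricter settings keep fewer peaks. With a −log10 q of at least 10, 2 members had a start-site peak in mESC+ and 2 in mESC-, and among the 50000 strongest peaks also 2 and 2. A choice made after the data were seen, any annotated transcript start, gave 8 and 4. Near Aqp3, the peaks in mESC- alone numbered 2 with a −log10 q of at least 10, 2 among the 50000 strongest and 5 within 50 kb. The peaks in mESC+ alone numbered 2 among the 50000 strongest, and the shared peaks 11 and 7 under the −log10 q and the 50000 limits. Outside the window of Aqp7, a choice made after the data were seen, Aqp3 had 6 shared peaks, 2 in mESC+ alone and 2 in mESC- alone. The median change of percentile near Aqp3 was 3.81 among the 50000 strongest peaks and 1.71 with the mESC+ list shortened to the length of the mESC- list, a choice also made after the data were seen. For the other 7 members these medians were 0.071 and 0.0573, so both changed sign. With no mismatch allowed, 0 peaks near Aqp3 held a direct repeat in either list, and in 100 bp around the summit 3 did in mESC+. The number of members with a dynamic region was 1 within 50 kb and within 200 kb. Depth is unknown for every library, so the lack of a peak is not the lack of open chromatin.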
